A study of Mus musculus with 6 samples.

Results

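The hemidesmosome and laminin-332 genes measured on these arrays were 9 genes, *Itga3*, *Itga6*, *Itgb4*, *Lama3*, *Lamb3*, *Plec*, *Dst*, *Col17a1* and *Cd151*. The rule names them for the structure their products build and uses no measured value, although the set was drawn up with earlier results of these data known. A probe set is a group of array probes that together measure one transcript or a set of related transcripts, and every probe set that the platform annotation assigns to 1 of these genes and to no other was taken. This gave 21 of the 45141 probe sets on the array, and 9 of the 17097 genes that have at least 1 probe set of their own.

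Hemidesmosomes are the rivets that fix basal keratinocytes to the basement membrane. Their core is α6β4-integrin, which binds laminin-332 outside the cell and, through the cytoplasmic linkers plectin and BP230, the keratin filaments inside it, with collagen XVII and the tetraspanin CD151 beside it in the membrane. Laminin-332, a basement membrane ligand that contains the α3 and β3 chains, is also bound by α3β1-integrin, the receptor of keratinocyte focal contacts. In skin, inherited loss of most of these proteins causes blistering, and in squamous cell carcinoma several of them are known from the invasive front.

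EpCAM+ plastic cancer cells, sorted as α6-integrin+CD45-EpCAM+ cells from 3 independent moderately or poorly differentiated squamous cell carcinomas (MD/PD-SCCs), were compared with full epithelial cancer cells, sorted with the same markers from 3 independent well-differentiated tumors (WD-SCCs). All tumors were mouse cutaneous squamous cell carcinomas whose cancer cells descend from spontaneous or DMBA/TPA-induced lesions of K14-HPV16 Tg/+ mice, in which the keratin 14 promoter drives the viral transgene in basal keratinocytes. The tumors of this progression model were grown by engraftment, with MD/PD-SCCs arising when WD-SCC tissue was transplanted serially in immunodeficient mice, so the tumors are not spontaneous cancers of separate animals. Suspensions were digested overnight with collagenase and dispase and depleted of endothelial cells, and RNA from each tumor went onto 1 Affymetrix mouse expression array. The hosts were young male mice, by the methods of the study. The question of the comparison is how epithelial cancer cells of tumors that also hold mesenchymal cells differ from those of mainly epithelial tumors.

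Both groups were gated on the α6-integrin and EpCAM proteins, so the products of *Itga6* and *Epcam* were part of the sort. To describe the cells, 7 markers of keratinocytes and other epithelial cells were read, among them *Krt5*, *Krt14*, *Trp63* and *Epcam*. Of these, *Epcam* is no check of the label, since the sort used its product. All 7 were above background, none passed the test between the groups, and their mean log2 value was 10.49 to 10.70 in EpCAM+ plastic arrays and 10.49 to 10.64 in full epithelial arrays. The basal keratin *Krt15*, not among the 7, was not above background, with means of 5.45 in EpCAM+ plastic and 5.77 in full epithelial arrays. Because each array measures the pooled RNA of a sort, fewer cells that express a gene and less RNA per cell cannot be told apart. All values below are normalized log2 signals, on which a difference of 1 is a doubling. A probe set was taken as above background when its mean exceeded 5.73, the level that 95% of the 23 nonspecific probe sets of the array stay under. Differences are EpCAM+ plastic minus full epithelial, and a probe set rose or fell when its p from limma, adjusted over the 45141 probe sets, was under 0.05.

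All 9 members had a higher mean in EpCAM+ plastic than in full epithelial cancer cells when each was read from its brightest probe set. Of the 9, 5 rose (*Itga3*, *Lama3*, *Plec*, *Dst* and *Col17a1*), 0 fell and 4 did not pass the test (*Itga6*, *Itgb4*, *Lamb3* and *Cd151*), on a background of 5.30% of all 17097 genes that rose and 1.91% that fell. Since all 9 were above background by this probe set, the closer comparison is with the 7735 genes above background, of which 10.1% rose and 3.41% fell. Their median log2 fold change was 1.11, with a range of 0.53 to 1.35, whereas the median was -0.02 over all genes and 0.09 over those above background. When each gene was read from the mean of its probe sets instead, 4 members rose, since *Dst* no longer passed. Counted by probe set, 10 of 21 rose and 0 fell, against 4.11% of all probe sets that rose, and 6 of the 10 also reached a log2 fold change of 1, against 1.58%. These 10 were among the 18 member probe sets above background, and of all 11795 single-gene probe sets above background 1150 rose. In 14 of the 21 every EpCAM+ plastic array lay above every full epithelial array, a pattern that 13.5% of all probe sets showed, and no member probe set showed the opposite. The calls depended on which arrays entered the fit. Without replicate 1 or replicate 3 of EpCAM+ plastic, or without replicate 1 of full epithelial, 0 of the 21 probe sets and 0 of the 9 members passed limma's adjusted threshold. Of all probe sets, 0.893%, 1.34% and 1.57% rose in these fits. Without full epithelial replicate 2, 6 probe sets and 4 members passed, without full epithelial replicate 3 it was 3 and 2, and without EpCAM+ plastic replicate 2 it was 8 and 5. In every one of these fits all 9 members kept a higher mean in EpCAM+ plastic cancer cells. Over the whole array, leaving out those arrays lowered the number of probe sets that rose as well, with 403 left without replicate 1 of EpCAM+ plastic as the lowest count and 1774 left without replicate 2 of that group as the highest, against 1856 with all arrays.

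**Figure D1:**
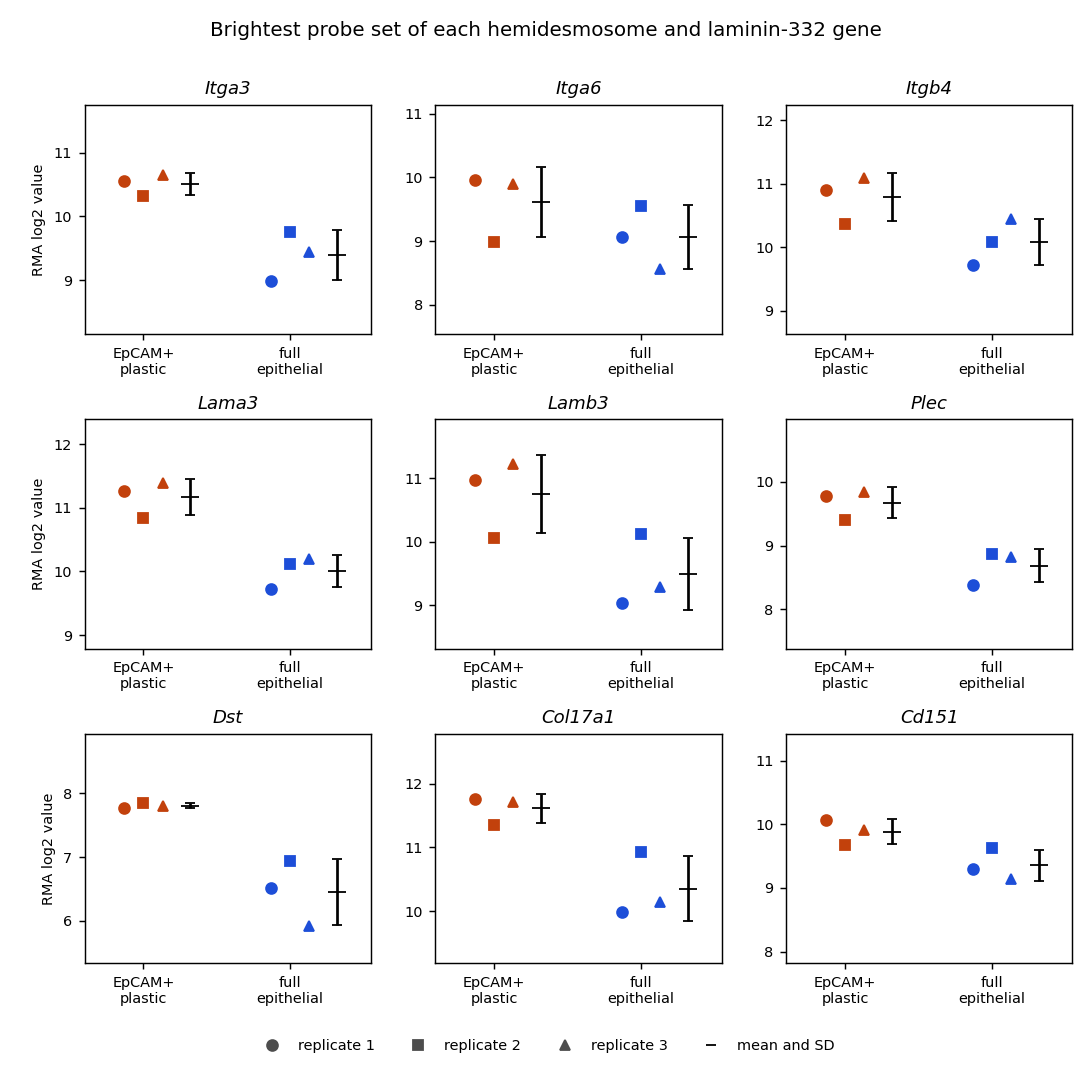
Normalized log2 signal of the brightest probe set of each of the 9 members in the 3 EpCAM+ plastic and the 3 full epithelial arrays, with bars for the mean and SD of each group (n = 3). The groups do not overlap for 6 members, and they overlap for *Itga6*, *Itgb4* and *Lamb3*. Of all probe sets on the array, expressed or not, 13.5% had no overlap with EpCAM+ plastic higher.

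*Itga6* encodes α6-integrin, the α subunit of the hemidesmosome receptor. It had log2 values of 9.95, 8.98 and 9.90 in the EpCAM+ plastic arrays, against 9.07, 9.56 and 8.56 in the full epithelial arrays. The groups overlapped, since EpCAM+ plastic replicate 2 lay below 2 of the full epithelial arrays. The log2 fold change was 0.55 (standard error 0.34, 95% confidence interval -0.25 to 1.35, adjusted p = 0.416 from limma). The other *Itga6* probe set overlapped in the same way, with 9.91, 8.85 and 9.99 in EpCAM+ plastic, against 8.64, 9.47 and 8.64 in full epithelial cancer cells, and had a log2 fold change of 0.67 (adjusted p = 0.355 from limma).

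*Itgb4* encodes β4-integrin, whose long cytoplasmic tail docks plectin and which pairs only with α6. Its single probe set read 10.91, 10.37 and 11.09 in EpCAM+ plastic cancer cells, against 9.73, 10.08 and 10.44 in full epithelial cancer cells. The overlap was a narrow one, between EpCAM+ plastic replicate 2 and full epithelial replicate 3. The means were 10.79 ± 0.38 in EpCAM+ plastic and 10.08 ± 0.36 in full epithelial cancer cells (SD, n = 3 each), a log2 fold change of 0.71 (standard error 0.24, 95% confidence interval 0.13 to 1.28) that did not pass after adjustment (adjusted p = 0.154 from limma).

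*Itga3* encodes α3-integrin, the partner of β1 in the laminin-332 receptor of focal contacts. Its brightest probe set read 10.56, 10.31 and 10.65 in EpCAM+ plastic cancer cells, against 8.98, 9.76 and 9.44 in full epithelial cancer cells. Every EpCAM+ plastic array was above every full epithelial one. *Itga3* rose by a log2 fold change of 1.11 (standard error 0.20, 95% confidence interval 0.63 to 1.60, adjusted p = 0.0307 from limma), which is 2.16-fold. Both other *Itga3* probe sets passed too, with log2 fold changes of 1.03 (adjusted p = 0.0495 from limma) and 1.13 (adjusted p = 0.047 from limma). The call of the brightest one was lost in 4 of the 6 fits that left out 1 array, with adjusted p between 0.0537 and 0.107 from limma in those without EpCAM+ plastic replicate 1 or 3 or full epithelial replicate 1 or 3.

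*Cd151* encodes the tetraspanin that holds laminin-binding integrins in membrane microdomains. The brightest of its 4 probe sets read 10.07, 9.67 and 9.91 in EpCAM+ plastic cancer cells, against 9.29, 9.63 and 9.15 in full epithelial cancer cells. The groups did not overlap, although EpCAM+ plastic replicate 2 and full epithelial replicate 2 were close. *Cd151* did not pass on this probe set, at 0.53 on the log2 scale (standard error 0.16, 95% confidence interval 0.15 to 0.91, adjusted p = 0.115 from limma). It passed on a dimmer one, which read 7.70, 7.44 and 7.73 in EpCAM+ plastic, against 7.16, 7.15 and 7.13 in full epithelial arrays, with a log2 fold change of 0.48 (adjusted p = 0.0497 from limma). Another gave 0.44 (adjusted p = 0.0771 from limma), and the last lay at background in both groups, with means of 3.85 in EpCAM+ plastic and 3.96 in full epithelial arrays. The identifiers of the brightest probe set and of the one that passed mark probes that can also match other sequences.

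**Figure D2:**
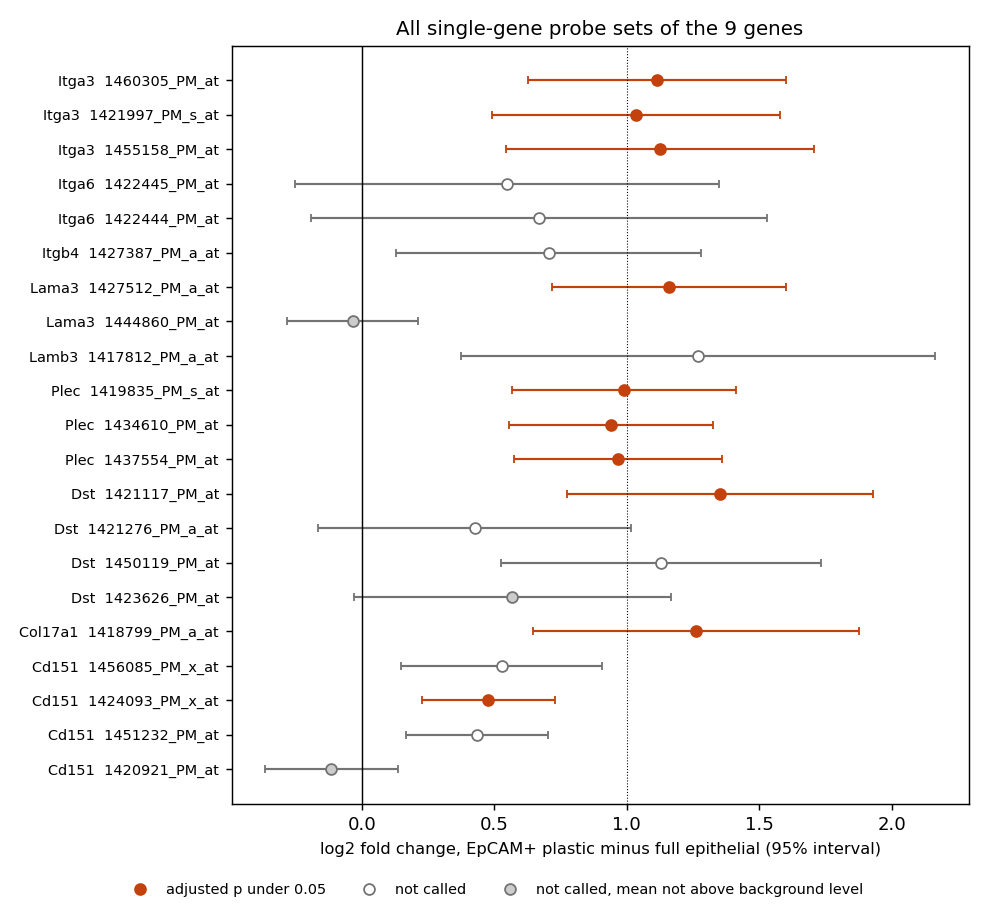
Log2 fold change, EpCAM+ plastic minus full epithelial, with its 95% confidence interval for each of the 21 member probe sets, with probe sets whose mean was not above background in grey. Of the 21, 19 lie above 0 and 10 passed the adjusted threshold, among them all 3 of *Itga3* and all 3 of *Plec*.

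*Lama3* encodes the α3 chain, the part of laminin-332 that integrins bind. Its brightest probe set read 11.26, 10.84 and 11.39 in EpCAM+ plastic cancer cells, against 9.72, 10.12 and 10.19 in full epithelial cancer cells. The lowest EpCAM+ plastic array was clear of the highest full epithelial one. *Lama3* rose by 1.16 on the log2 scale (standard error 0.19, 95% confidence interval 0.72 to 1.60, adjusted p = 0.0214 from limma), or 2.23-fold, with means of 11.17 ± 0.29 in EpCAM+ plastic and 10.01 ± 0.25 in full epithelial cancer cells (SD, n = 3 each). The other *Lama3* probe set was at background in both groups, with means of 4.38 in EpCAM+ plastic and 4.41 in full epithelial arrays, and the mean of both probe sets gave a log2 fold change of 0.56. The call was lost without EpCAM+ plastic replicate 1 or 3 and without full epithelial replicate 1, at adjusted p = 0.0837, 0.0657 and 0.0576 from limma.

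*Lamb3* encodes the β3 chain, which among the laminins is found in laminin-332 and few others. It read 10.98, 10.07 and 11.22 in EpCAM+ plastic cancer cells, against 9.05, 10.13 and 9.29 in full epithelial cancer cells. Replicate 2 of EpCAM+ plastic lay just under replicate 2 of full epithelial, and the remaining arrays of the groups were well apart. The fold change was of the size of that of *Lama3*, at 1.27 on the log2 scale, but with a standard error of 0.38 and a 95% confidence interval of 0.37 to 2.16 it did not pass (adjusted p = 0.108 from limma). *Lamb3* passed in 1 fit, without EpCAM+ plastic replicate 2, where its log2 fold change was 1.61 (adjusted p = 0.042 from limma).

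*Col17a1* encodes collagen XVII, a transmembrane collagen that joins the hemidesmosome plaque to the basement membrane. Its probe set read 11.77, 11.36 and 11.72 in EpCAM+ plastic cancer cells, against 9.98, 10.93 and 10.14 in full epithelial cancer cells. The groups did not overlap, and full epithelial replicate 2 was nearest to the other group. *Col17a1* rose by 1.26 on the log2 scale (standard error 0.26, 95% confidence interval 0.65 to 1.87, adjusted p = 0.0408 from limma), which is 2.40-fold. It did not pass without EpCAM+ plastic replicate 1 or 3 or without full epithelial replicate 1 or 3, with log2 fold changes of 1.08 to 1.21 and adjusted p of 0.107 to 0.136 from limma in those fits.

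*Plec* encodes plectin, the large plakin that ties β4-integrin to keratin filaments. The brightest of its probe sets read 9.78, 9.40 and 9.85 in EpCAM+ plastic cancer cells, against 8.38, 8.86 and 8.81 in full epithelial cancer cells. No array of one group reached into the other. *Plec* rose by 0.99 on the log2 scale (standard error 0.18, 95% confidence interval 0.57 to 1.41, adjusted p = 0.0284 from limma), or 1.99-fold. Its other probe sets gave 0.94 (adjusted p = 0.0256 from limma) and 0.97 (adjusted p = 0.0251 from limma), so that the 3 probe sets of *Plec* passed at close to the same size. The brightest one passed without EpCAM+ plastic replicate 2 and missed the threshold without any other single array, at adjusted p between 0.0506 and 0.104 from limma.

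*Dst* encodes dystonin, a plakin that is made from several start sites in forms that differ by tissue. The epithelial form, BP230, anchors keratin at the hemidesmosome, whereas other forms are known from neurons and muscle. The brightest of the 4 *Dst* probe sets read 7.77, 7.85 and 7.81 in EpCAM+ plastic cancer cells, against 6.52, 6.94 and 5.91 in full epithelial cancer cells. The EpCAM+ plastic arrays lay within 0.086 of each other and the full epithelial arrays within 1.03, the tightest and among the widest ranges of the members. On this probe set *Dst* rose by 1.35 on the log2 scale (standard error 0.24, 95% confidence interval 0.77 to 1.93, adjusted p = 0.0287 from limma), the largest fold of the 9 brightest probe sets at 2.55. It did not pass without EpCAM+ plastic replicate 1, 2 or 3 or without full epithelial replicate 1, where adjusted p was 0.0538 to 0.0952 from limma, and the mean of its 4 probe sets gave 0.87 (adjusted p = 0.0622 from limma).

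The probe sets of *Dst* did not all read alike. One that the annotation places on the same transcript as the brightest read 6.52, 6.71 and 6.92 in EpCAM+ plastic cancer cells, against 5.67, 6.05 and 5.04 in full epithelial cancer cells, without overlap and with a log2 fold change of 1.13 (adjusted p = 0.0511 from limma). A probe set placed on another transcript read 6.14, 6.96 and 6.25 in EpCAM+ plastic, against 6.32, 6.02 and 5.73 in full epithelial arrays, where the groups overlapped and the log2 fold change was 0.43 (adjusted p = 0.391 from limma). The last one, from an expressed sequence tag and not above background by its mean, read 5.49, 6.24 and 5.59 in EpCAM+ plastic, against 5.38, 5.44 and 4.79 in full epithelial arrays, with 0.57 (adjusted p = 0.257 from limma). Whether these fold changes differ was tested on the difference between probe sets within each array, a test chosen after the values were seen. The brightest probe set minus the one on the other transcript was 1.63, 0.89 and 1.56 in EpCAM+ plastic cancer cells, against 0.20, 0.92 and 0.18 in full epithelial cancer cells, and these groups overlapped (difference of means 0.93, two-sided exact permutation test p = 0.2). Over 4 such pairs the difference of means was 0.56 to 0.93, with exact permutation p of 0.1 to 0.2 and an adjusted p of 0.2 for each, where 3 arrays against 3 cannot go below 0.1. The pair that reached 0.1 was the brightest probe set minus the one from the expressed sequence tag, at 2.28, 1.62 and 2.22 in EpCAM+ plastic, against 1.13, 1.51 and 1.12 in full epithelial cancer cells, without overlap. This test cannot pass in this design, so it does not settle whether the *Dst* transcripts differ in their change. The files do not say which form of dystonin each probe set measures.

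Promoter sequence is shown for *Dst*, whose probe sets fall on different transcripts, and for *Itga3* and *Col17a1*, members that rose on each of their probe sets. The promoter table from RefSeq (assembly GRCm38.p6) held 5 of the 9 members (*Itga3*, *Lamb3*, *Dst*, *Col17a1* and *Cd151*) with 9 start sites. The 250 bases before the start are shown for the first start site of *Itga3* (chr11:95076715-95076964, minus strand), for the first and second start site of *Dst* (chr1:34011345-34011594 and chr1:34160010-34160259, plus strand) and for *Col17a1* (chr19:47692043-47692292, minus strand), read 5′ to 3′ on the strand of the gene. Capitals mark motif matches on either strand. The GC box was searched as GGGCGG. The TATA box was searched as TATAAA. The E-box was searched as CACCTG, and its complement is marked where the match lies on the opposite strand. The AP-1 site was searched as TGANTCA. None of the marked motifs overlap each other.
Itga3: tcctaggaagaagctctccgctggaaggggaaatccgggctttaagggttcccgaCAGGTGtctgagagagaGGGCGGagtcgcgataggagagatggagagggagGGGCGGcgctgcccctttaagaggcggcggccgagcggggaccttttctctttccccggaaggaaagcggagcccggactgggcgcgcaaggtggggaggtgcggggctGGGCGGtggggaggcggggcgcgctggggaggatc
Dst, first start site: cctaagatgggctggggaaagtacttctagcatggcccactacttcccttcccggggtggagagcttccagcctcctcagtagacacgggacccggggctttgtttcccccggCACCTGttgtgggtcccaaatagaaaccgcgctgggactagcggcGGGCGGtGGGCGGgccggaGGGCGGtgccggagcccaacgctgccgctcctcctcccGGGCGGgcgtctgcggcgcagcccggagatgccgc
Dst, second start site: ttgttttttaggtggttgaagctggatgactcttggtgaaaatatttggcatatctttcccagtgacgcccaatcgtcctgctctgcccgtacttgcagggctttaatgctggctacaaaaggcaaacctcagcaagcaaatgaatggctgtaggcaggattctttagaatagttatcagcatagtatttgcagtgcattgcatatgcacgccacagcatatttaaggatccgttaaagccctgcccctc
Col17a1: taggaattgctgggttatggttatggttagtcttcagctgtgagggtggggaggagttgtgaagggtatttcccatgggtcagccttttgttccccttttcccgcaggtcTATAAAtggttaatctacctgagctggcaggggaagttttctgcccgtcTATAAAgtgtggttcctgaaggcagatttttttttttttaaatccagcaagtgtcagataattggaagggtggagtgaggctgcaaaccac

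These promoters were of different kinds. The *Itga3* window and the first *Dst* window were rich in G and C (67.6% and 68.8%) and held 3 and 4 GC boxes, with 1 E-box each. The second *Dst* window (45.2% G and C) held no match to any of the motifs, and the *Col17a1* window (46% G and C) held 2 TATA boxes. No AP-1 match lay in any of the 9 windows. Over all 32851 promoters of the table, windows of the same length held a GC box in 32.7%, an E-box in 17.2%, a TATA box in 12.4% and an AP-1 match in 6.75%. These matches describe the sequence and are not measured binding.

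The members were spread over 7 chromosomes, and only *Itga3* with *Itgb4* (chromosome 11) and *Lamb3* with *Dst* (chromosome 1) shared one. The 12 measured genes on each side of a member had median log2 fold changes of -0.07 to 0.08 for 8 of them. *Col17a1* was the exception. Around it, on chromosome 19, the median of 24 neighbours was 0.56, with 6 that rose and 0 that fell, among them *Add3*, an adducin of the membrane skeleton, at 1.71, *Xpnpep1*, an aminopeptidase, at 1.34 and *Taf5*, a subunit of the general transcription factor TFIID, at 1.13. On chromosome 19 as a whole, 100 of 568 genes rose (17.6%) and 1 fell, with a median of 0.11, whereas 2.91% to 7.17% of genes rose on the chromosomes of the other members. The part of this neighbourhood in the *Col17a1* result was not tested.

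**Figure D3:**
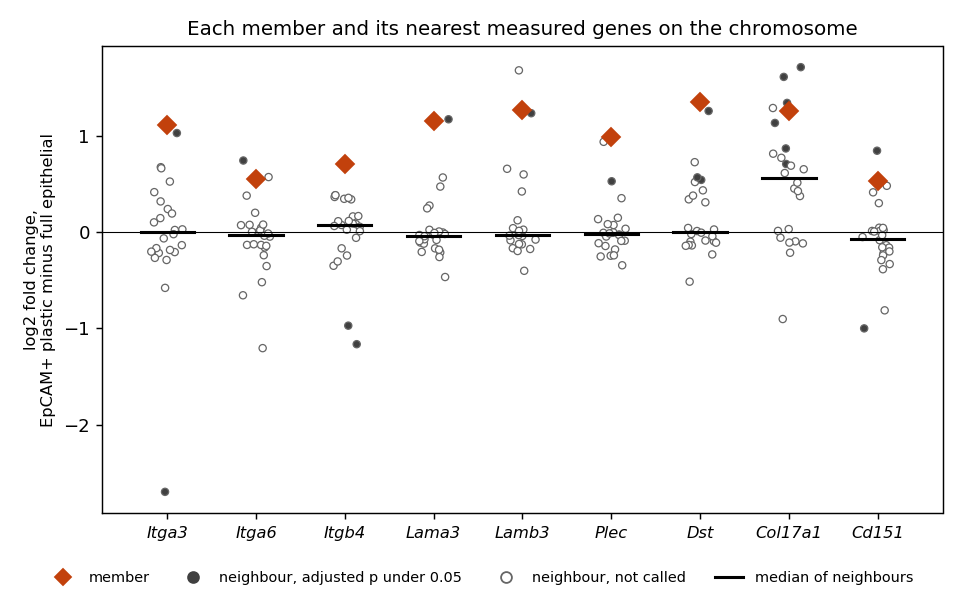
Log2 fold change, EpCAM+ plastic minus full epithelial, of each member (large points) and of the measured genes nearest to it on the chromosome (small points, 12 on each side, 20 in all for *Lamb3*), with the median of the neighbours as a bar. The neighbours centre near 0 for 8 members and at 0.56 for *Col17a1*.

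Within a group the members tended to deviate in the same direction on an array. EpCAM+ plastic replicate 2 was the lowest of its group for 8 of the 9 members, with *Dst* the exception, and full epithelial replicate 2 was the highest of its group for 7. Over the 906 genes that rose, EpCAM+ plastic replicate 2 was the lowest in 44.2% and full epithelial replicate 2 the highest in 42.6%, so this order was also the most frequent one among genes that rose. Set against the full epithelial mean, the median member deviation was 1.16 in EpCAM+ plastic replicate 1, 0.712 in replicate 2 and 1.25 in replicate 3. After removal of the group means, the correlation between members over the 6 arrays had a median of 0.647 over 36 pairs, 33 of them positive, and reached 0.979 for *Lama3* with *Plec* and 0.966 for *Lama3* with *Itgb4*. The lowest was -0.447, for *Dst* with *Itgb4*. These correlations describe 6 arrays, and all genes of an array share its RNA and its hybridization.

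Markers of other cell types were read on the same arrays. The 10 fibroblast markers averaged 4.54, 5.40 and 4.40 in the EpCAM+ plastic arrays and 4.70 to 4.92 in the full epithelial arrays, with 2 of 10 above background by their mean and none that passed the test. The array with the highest value, EpCAM+ plastic replicate 2, was also the lowest of its group for 8 members. It read 7.62 for *Postn* and 6.84 for *Dcn*. For *Col1a1* it read 8.05, against 6.63 and 6.48 in replicates 1 and 3, and for *Col3a1* 7.85, against 6.03 and 4.70. *Lum* (3.42), *Col1a2* (3.95), *Thy1* (5.00) and *Col6a3* (4.05) were also the highest of their group there, but under the background level of 5.73. *Pdgfra* (4.00) was the lowest of its group there and *Fap* (3.22) the middle one, both under that level too. The part of fibroblast RNA in the level of the members on this array was not tested. The pericyte and smooth muscle markers averaged 5.25 to 5.56 in EpCAM+ plastic arrays and 5.41 to 5.67 in full epithelial arrays (2 of 6 above background), where *Acta2* rose by 1.19 and *Notch3* fell by 1.59. The Schwann cell markers averaged 6.29 to 6.64 in EpCAM+ plastic and 6.27 to 6.36 in full epithelial arrays (4 of 5 above background, *Ncam1* rose by 1.41), and the leukocyte markers 4.50 to 4.66 in EpCAM+ plastic and 4.75 to 4.81 in full epithelial arrays (2 of 7 above background, none passed). No marker of endothelial cells (0 of 8), melanocytes (0 of 6) or skeletal muscle (0 of 6) had a mean above background.

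**Figure D4:**
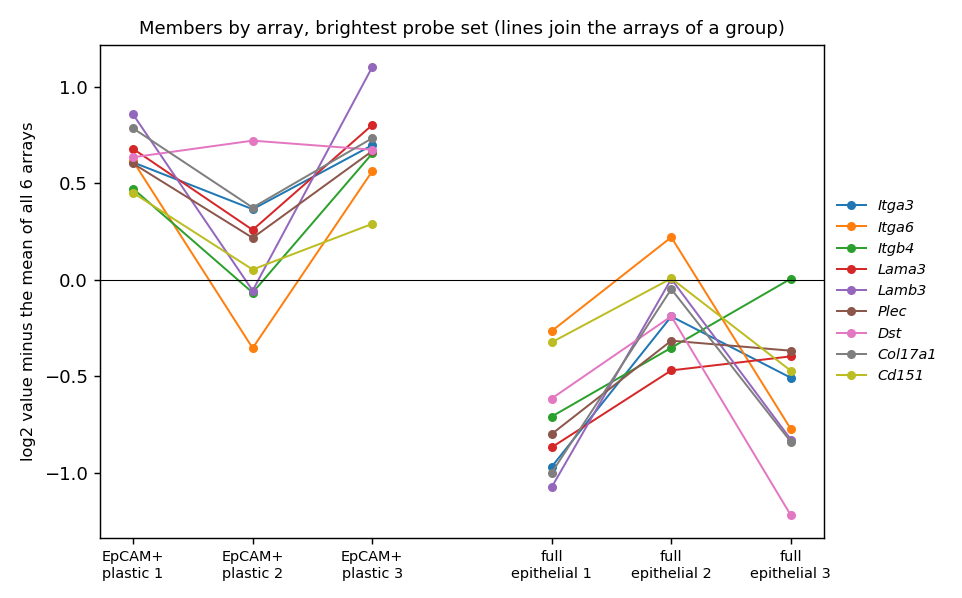
Log2 value of each member minus its mean over the 6 arrays, for the EpCAM+ plastic arrays on the left and the full epithelial arrays on the right. Lines only help to follow a gene, since arrays of a group have no order. EpCAM+ plastic replicate 2 is the lowest of its group for 8 members and full epithelial replicate 2 the highest of its group for 7.

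The centred mean profile of the 9 members was 0.633, 0.167 and 0.687 in EpCAM+ plastic arrays and -0.737, -0.149 and -0.601 in full epithelial arrays. Among 7726 other genes above background, the 5 whose profile over the 6 arrays was most like it were *Smc4* (Pearson r = 0.998), a subunit of condensin, *Notch1* (0.998), a receptor of keratinocyte differentiation, *Rfx2* (0.997), a transcription factor, *Ilk* (0.995), the integrin-linked kinase, and *Cops8* (0.994), a subunit of the COP9 signalosome. Of these, *Smc4* rose by 0.55 (adjusted p = 0.0492 from limma) and *Notch1* by 1.06 (adjusted p = 0.0452 from limma). *Rfx2*, *Ilk* and *Cops8* had log2 fold changes of 0.52, 0.46 and 0.79 and did not pass (adjusted p = 0.0692, 0.0726 and 0.0722 from limma). They were picked as the closest of many over 6 arrays, and the likeness is a description.

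The other genes of the pathway were read from 8 lists with 101 genes, of which 89 were measured. The counts of these lists are to be read beside the shares over all genes, of which 5.30% rose and 1.91% fell. Over the genes above background the shares were 10.1% and 3.41%. Of the 89, 60 were above background, 7 rose, 2 fell and 80 missed the threshold, at a median log2 fold change of 0.09. Of EpCAM+ plastic, leaving out replicate 1 left 2 that rose, leaving out replicate 2 gave 11 and leaving out replicate 3 gave 4, and leaving out replicate 1 or 3 of full epithelial gave 3. The count that fell was 1 without any single array other than EpCAM+ plastic replicate 2.

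On the side of the ligand, 1 of 6 other laminin chains rose and 0 fell (median 0.05, and 0.89 over the 2 above background). This was *Lamb1*, the laminin β1 chain, which read 7.17, 7.08 and 7.32 in EpCAM+ plastic cancer cells, against 6.71, 6.22 and 6.23 in full epithelial cancer cells (log2 fold change 0.81, adjusted p = 0.0349 from limma). Of the 6, 0 passed in the fits without EpCAM+ plastic replicate 1 or 3 or without full epithelial replicate 2 or 3. Of 13 other basement membrane genes, 0 rose and 0 fell (median 0.08, and 0.20 over the 5 above background). The closest to the threshold were both chains of the common collagen IV, *Col4a2* at 0.77 (adjusted p = 0.227 from limma) and *Col4a1* at 0.65 (adjusted p = 0.254 from limma). Of 12 genes listed for a direct or indirect part in laminin processing or collagen XVII shedding, 1 rose and 1 fell (median 0.17, and 0.45 over the 8 above background). *Mmp9*, a gelatinase, read 8.75, 9.25 and 10.33 in EpCAM+ plastic cancer cells, against 6.91, 7.28 and 7.66 in full epithelial cancer cells (log2 fold change 2.16, adjusted p = 0.0319 from limma). *Plat*, the tissue plasminogen activator, read 9.49, 8.73 and 9.25 in EpCAM+ plastic, against 10.88, 10.16 and 10.18 in full epithelial cancer cells (log2 fold change -1.25, adjusted p = 0.0436 from limma). No gene of this list fell in any fit that left out 1 array, and none rose without full epithelial replicate 1, 2 or 3.

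On the side of the receptors, 1 of 8 other laminin receptor genes rose and 0 fell (median 0.26, and 0.30 over the 6 above background). *Itga2*, the α2 subunit that binds collagens and laminins, read 7.52, 7.74 and 7.56 in EpCAM+ plastic cancer cells, against 6.69, 6.82 and 6.41 in full epithelial cancer cells (log2 fold change 0.97, adjusted p = 0.0135 from limma), and none of the list passed without EpCAM+ plastic replicate 1. Of 18 other tetraspanins, 2 rose and 0 fell, with a median of -0.01, and of 0.06 over the 12 above background. They were *Tspan2* at 1.44 (adjusted p = 0.0372 from limma) and *Tspan4* at 0.84 (adjusted p = 0.0183 from limma), the second a close neighbour of *Cd151* on chromosome 7, and 0 of the 18 rose without EpCAM+ plastic replicate 1 or without full epithelial replicate 1. Of 7 signal partners of α6β4-integrin, 1 rose and 0 fell (median 0.20, and 0.03 over the 6 above background). This was *Met*, the receptor of hepatocyte growth factor, which read 9.36, 9.28 and 9.61 in EpCAM+ plastic cancer cells, against 7.81, 7.88 and 8.22 in full epithelial cancer cells (log2 fold change 1.45, adjusted p = 0.00778 from limma).

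On the cytoplasmic side, 0 of 8 other plakins and basal keratins rose and 1 fell, with a median of -0.24, and of -0.23 over the 7 above background. *Evpl* encodes envoplakin, a plakin of the cornified envelope, and read 9.75, 9.77 and 9.42 in EpCAM+ plastic cancer cells, against 10.53, 10.57 and 10.75 in full epithelial cancer cells (log2 fold change -0.97, adjusted p = 0.013 from limma). Its partner *Ppl*, periplakin, was at -0.79 (adjusted p = 0.152 from limma) and the desmosomal plakin *Dsp* at -0.23 (adjusted p = 0.165 from limma). Of 17 linkers of focal adhesions, 1 rose and 0 fell, with a median of 0.46, or 0.45 over the 14 above background. The one that rose was *Flna*, the actin crosslinker filamin A, at 0.66 (adjusted p = 0.0399 from limma), and no gene of this list passed without EpCAM+ plastic replicate 1 or 3 or without full epithelial replicate 1 or 3.

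**Figure D5:**
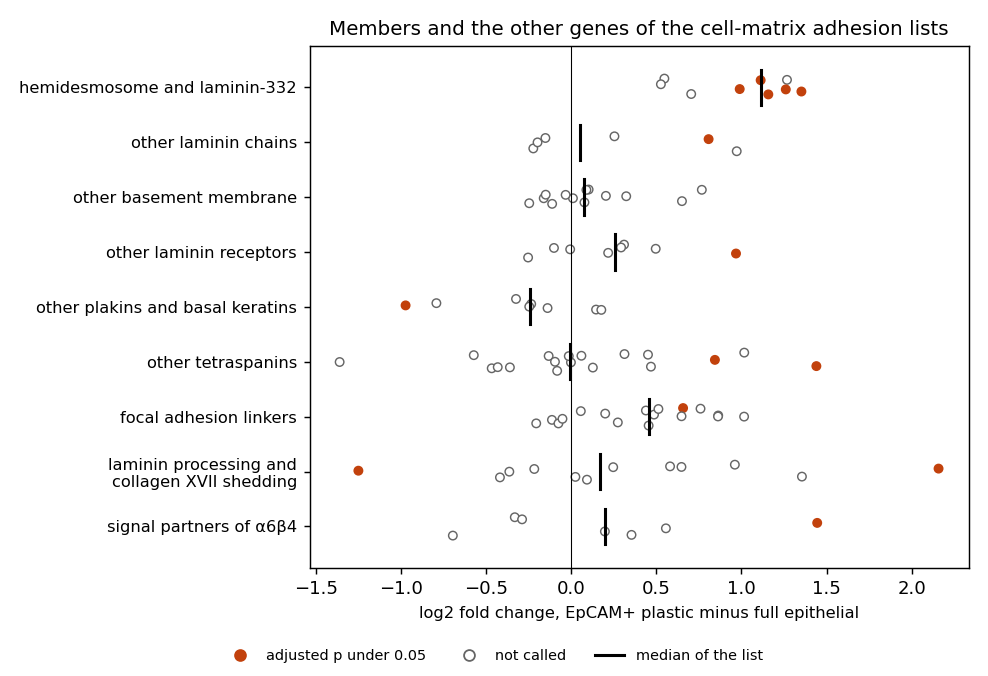
Log2 fold change, EpCAM+ plastic minus full epithelial, of each measured gene of the hemidesmosome and laminin-332 members and of the 8 other lists, with the median of each list as a bar. The members, all above background, have a median of 1.11, and the lists, with 60 of 89 genes above background, have medians of -0.24 to 0.46 over all measured genes and of -0.23 to 0.89 over those above background.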

How the data were processed

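RNA of 6 sorted cell samples (3 EpCAM+ plastic, 3 full epithelial, each from an independent tumor by the methods of the study) was amplified from a low input and hybridized to 1 array each. The authors deposited normalized log2 signals and name RMA as the method, without a version. RMA subtracts background, equalizes probe signals between arrays by quantiles and summarizes them per probe set, which can shrink a shift shared by most genes. The values stand in 2 tables that differ by at most 0, and no per-sample column was left unmapped. Of 45141 probe sets, the platform annotation gives 28898 to 1 gene, 551 to several and does not list 15692, and 28689 symbols were updated through the RefSeq gene table (GRCm38.p6). A gene was represented by its single-gene probe set of highest mean. Levels were compared between probe sets only to choose this one and in the pairs of *Dst* probe sets.

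Groups were compared with limma (version 3.58.1, R 4.3.3; lmFit and eBayes, no covariate, 4 residual and 2.81 prior degrees of freedom) over all probe sets with Benjamini-Hochberg adjustment. No fold minimum was used, and a minimum of 1 was an alternative. The fit was tested on simulated data. The members and lists were chosen with earlier results of these data known. Named were all members, up to 4 genes with an adjusted p under 0.05 per list (otherwise the 2 of smallest p) and the 5 genes closest to the mean member profile. *Ppl*, *Dsp* and the neighbours and markers named were chosen after their values were seen. Other settings were a replicate block, repeated quantile normalization, median centring, an intensity trend with a robust prior, array weights, a background filter, the mean of a gene's probe sets and leaving out each array. The second deposited table, of equal values, was run as a setting too. Arrays give no read depth, so their number limits the precision. Replicates had within-group correlations of 0.979 to 0.990, against 0.954 to 0.976 between groups, and array medians were 4.85 to 4.90.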

Additional observations from a re-analysis of the deposited data

How the results depend on the processing

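In 126 combinations of a member with another setting the log2 fold change was positive in all 126. The call was kept, or again missed, in 99, lost in 26 and gained in 1 (*Lamb3*). All losses were among the 5 members that rose. Of 14 settings, *Itga3* kept its call in 9, *Lama3* in 10, *Plec* in 8, *Dst* in 8 and *Col17a1* in 9. These settings include the second deposited table, whose equal values fixed its outcome in advance. Of the 21 member probe sets, 10 rose with all arrays and 0 to 8 when 1 array was left out, and of the 9 members 5 rose and 0 to 5 did so. With a fold minimum, 6 probe sets passed. With quantile normalization repeated 7 probe sets rose, and with array weights 12, with 5 members in each case. In the 8 other lists 7 genes rose and 2 fell, which became 2 to 11 and 1 to 2 when 1 array was left out, 3 and 1 with a fold minimum, 4 that rose with quantile normalization repeated, 11 that rose with array weights, and 4 that fell among probe sets above background only. Over all probe sets, repeated quantile normalization gave 1334 higher and 1027 lower, against 1856 and 843 as deposited. Arrays of equal replicate number did not deviate together (residual correlations of -0.181, -0.373 and -0.00567) and no array was closest to its own number. With 3 arrays a group this check cannot decide whether the numbers pair the samples, and the labels do not say. With the replicate block, 0 member probe sets and 0 members passed limma's threshold, and in the lists 2 genes rose and 1 fell. With this block 307 probe sets rose on the whole array. Of the 21 member probe sets 3 were not above background, where a change can be understated, and 3 arrays a group limit the precision of each value.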
